A study of Drosophila melanogaster with 2 samples.

Results

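The 6 genes ush, cbt, CG11050, Lk6, HmgZ and HmgD hold or adjoin the strongest intronic peaks of the tagged fly protein Camta. They were chosen by the signal value, the authors' own measure of enrichment, of the intronic peaks in the list that passed the irreproducible discovery rate (IDR) threshold. They are 6 of 13945 protein-coding genes annotated on the 6 main chromosome arms. Chromatin immunoprecipitation was done with an antibody against GFP on whole embryos of both sexes, aged 0 to 24 h. All embryos came from 1 line in which an intronic eGFP exon turns Camta into a GFP fusion (strain Camta-MiMIC-GFP), so every sample carries the tag. The single group had 2 biological replicates, numbered 2 and 3, and embryos without the tag were not analysed here. Whole embryos mix all cell types, so no cell type could be checked or named. Positions are on build dm6.

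Camta belongs to the calmodulin-binding transcription activators, whose DNA-binding domain recognises a CGCG-containing box in vitro and which answer to calcium through calmodulin. A peak in an intron can lie at an enhancer of the gene that holds it, at an unannotated start site, or near the promoter of another gene that shares the sequence. For that reason each peak is given with its distance to every start site close to it. The ush gene encodes a zinc finger cofactor that binds GATA factors and acts in blood cells, the heart and bristle patterning. Its neighbour cbt encodes a zinc finger transcription factor that acts in dorsal closure of the embryo and in the response to dietary sugar. Lk6 is a kinase of the Mnk type and acts on the cap-binding translation factor eIF4E. HmgZ and HmgD are closely related chromatin proteins, each with an HMG box that bends DNA.

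The sequences at the summits, read from the RefSeq Release 6 assembly on the plus strand, are shown so that motif matches can be seen in place. Each run is 151 bases centred on the summit, and capitals mark matches to any of 16 short motifs within 50 bp of it. The first 3 are the intronic peaks of ush, CG11050 and Lk6. The last 3 are the promoter peaks of cbt, CG11050 and ush, shown for contrast.
ush intron, chr2L:480982-481132: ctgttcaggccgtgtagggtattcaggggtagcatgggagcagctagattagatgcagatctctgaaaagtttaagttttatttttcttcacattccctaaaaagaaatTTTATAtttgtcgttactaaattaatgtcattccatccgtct
CG11050 intron, chr2L:6612625-6612775: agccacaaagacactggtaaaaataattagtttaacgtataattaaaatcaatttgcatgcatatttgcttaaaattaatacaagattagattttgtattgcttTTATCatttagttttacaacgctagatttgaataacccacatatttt
Lk6 intron, chr3R:11760974-11761124: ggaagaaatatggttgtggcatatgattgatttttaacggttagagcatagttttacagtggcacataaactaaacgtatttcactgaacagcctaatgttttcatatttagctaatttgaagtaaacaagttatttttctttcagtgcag
cbt promoter, chr2L:479982-480132: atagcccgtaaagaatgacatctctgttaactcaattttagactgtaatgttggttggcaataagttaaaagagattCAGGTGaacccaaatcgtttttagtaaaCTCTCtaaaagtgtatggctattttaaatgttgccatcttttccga
CG11050 promoter, chr2L:6610794-6610944: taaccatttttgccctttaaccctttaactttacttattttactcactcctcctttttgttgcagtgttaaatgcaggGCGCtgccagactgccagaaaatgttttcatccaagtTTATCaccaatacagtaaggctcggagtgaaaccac
ush promoter, chr2L:523660-523810: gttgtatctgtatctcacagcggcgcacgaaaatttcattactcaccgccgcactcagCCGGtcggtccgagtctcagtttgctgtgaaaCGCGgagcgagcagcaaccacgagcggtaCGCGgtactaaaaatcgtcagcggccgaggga

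None of the 4 strongest intronic summits had the letters CGCG within 50 bp, on a panel searched on both strands. Across all 4033 IDR summits, 11.6% had them, across the 1325 intronic ones 7.09%, and across the 25098 relaxed regions outside IDR peaks 18.6%. The composition controls CCGG and GCGC were also missing from the 4 windows, against 8.03% and 17.8% of all IDR summits and 4.6% and 12.8% of the intronic ones. The ush intron window held TATAAA, the letters of a TATA box, read as TTTATA on the printed strand, and so did the window at HmgZ and HmgD. TATAAA stood at 17.6% of all IDR summits and 19.6% of the intronic ones. The CG11050 intron window held GATAA, the core letters that GATA factors read, which stood at 23.8% of all IDR summits and 25% of the intronic ones. The Lk6 intron window held none of the 16 motifs. Matches were also few at the next 6 intronic summits by signal value. There TATAAA stood at 2, GATAA at 1 and CANNTG at 1, and the other motifs at none. No match stood at any of the 4 summits for the DREF site TATCGATA or its core CGATA, the core promoter element GGTCACAC, the GAGA factor site GAGAG or the Zelda site CAGGTA. The same held for the E-box CANNTG and its form CACGTG, for TGACTCA of AP-1, for TGACGTCA of CREB, for CACCC of zinc finger factors such as the cbt family, and for GAANNTTC of heat shock factor. Their shares over all IDR summits, cores and full sites counted apart, ran from 0.149% for TGACGTCA to 37.9% for CANNTG, and CACGTG lies within CANNTG and CGATA within TATCGATA.

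The promoter windows differed from this in part. The ush promoter window, at the weakest peak of the gene, held CGCG at 2 places downstream of the summit and CCGG once upstream of it. The CG11050 promoter window held GCGC and GATAA, and the cbt promoter window held GAGAG and the E-box CANNTG. Of the 21 IDR summits at the 6 genes, 3 had CGCG (14.3%) and 6 had GATAA (28.6%). Over all IDR summits these shares were 11.6% and 23.8%, and over the intronic ones 7.09% and 25%. None of the 21 had CGATA, the core of the DREF site, against 17.5% of all IDR summits and 10.2% of the intronic ones, and 15 of the 21 were intronic. G and C made up 33.7% of the 101 bases around the strongest summit of ush, 21.8% of those at CG11050, 29.7% at Lk6 and 37.6% at HmgZ and HmgD. The CG11050 window was among the poorest in G and C, since 3.84% of all IDR summits were at or below it. The median over all IDR summits was 34.7%. At the promoter peaks, G and C made up 58.4% for ush, 38.6% for CG11050 and 32.7% for cbt. The ush promoter window, which held CGCG, was among the richest, since 98.9% of all IDR summits were at or below it.

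The strongest peak of the whole list lay in the first intron of ush, just upstream of cbt. The ush gene (FBgn0003963) runs from 476220 to 540560 on the plus strand of 2L, and cbt (FBgn0043364) from 476446 to 479688 on the minus strand. The cbt gene is thus nested in the first intron of the longest ush transcripts, ush-RD and ush-RE. The peak ran from 480857 to 481313 with its summit at 481057 and a signal value of 2218.4. The summit lay 1369 bp upstream of the only start site of cbt. In replicate 2 the region had a signal value of 837.3 and rank 2, and in replicate 3 a signal value of 1376.7 and rank 1. The scales of the replicate lists may differ, so ranks rather than levels are comparable between them. Both replicates had the region at the head of their lists.

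The promoter of cbt had a peak of its own, with its summit at 480057, 369 bp upstream of the start site. Its signal value was 649.7, with 255.3 in replicate 2 and 402.6 in replicate 3. It ranked 87 of 4033 in the IDR list, 86 in replicate 2 and 85 in replicate 3, so the lists placed it alike. A region of the relaxed list, which was made from both replicates pooled and holds peaks and background before thresholding, lay 279 bp downstream of the cbt start with a signal value of 46.3. On the other side of the strongest peak, a further IDR summit at 481924 had a signal value of 169.2 and lay 2236 bp upstream of cbt. It had 54.0 and rank 2439 in replicate 2 and 112.5 and rank 1414 in replicate 3. All 3 summits are inside ush and upstream of cbt, so position alone does not assign them to one gene.

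The rest of ush carried a long row of weaker peaks. With 13 IDR summits inside the gene, ush was among the 3 protein-coding genes with that many or more, and its length of 64341 bp bears on such a count. Over the locus, the genes and 5 kb to either side, there were 14 IDR summits, or 1.88 per 10 kb, against 0.301 over the 6 arms. The locus was chosen for holding a strong peak, which raises such a density. In the first intron of ush-RE, 13185 bp long, further summits lay at 485878 with a signal value of 354.4 and at 488404 with 97.6. The first had 110.3 and rank 643 in replicate 2 and 239.1 and rank 323 in replicate 3. A summit at 490267 in the 5' UTR of ush had a signal value of 180.1 and lay 568 bp upstream of the start of ush-RB, with signal values of 77.1 in replicate 2 and 110.2 in replicate 3, ranks 1318 and 1461. At 488404 both replicates were weak, at 37.6 and 61.0, ranks 4519 and 3749.

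A second stretch of peaks lay in the intron of 34033 bp that follows in ush-RB and ush-RE and is also covered by the first intron of ush-RD, 49060 bp long. Its summits stood at 510637 with a signal value of 212.2, at 512248 with 115.8, at 516216 with 192.1, at 520848 with 320.1, at 522110 with 172.8 and at 522954 with 110.6. Their signal values in the same order were 91.5, 37.8, 89.3, 113.7, 86.7 and 29.8 in replicate 2, and 115.7, 79.5, 95.9, 208.7, 89.3 and 77.7 in replicate 3. Their ranks in replicate 2 were 932, 4490, 977, 599, 1033 and 6754. In replicate 3 they were 1348, 2509, 1823, 439, 2045 and 2600. The peak at 520848 was high in both, and those at 512248 and 522954 fell short of the 4033 strongest regions in replicate 2. The last 3 of these summits lay 2618, 1356 and 512 bp upstream of the start of ush-RA.

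The promoters of ush itself were weakly bound or showed no IDR peak. At the starts of ush-RA and ush-RC, 523466 and 523736, an IDR summit at 523735 had a signal value of 95.9, rank 3998 of 4033. It had 42.7 and rank 3651 in replicate 2 and 50.4 and rank 4933 in replicate 3, so it was outside the 4033 strongest regions of replicate 3. The start of ush-RB at 490835 had a relaxed summit 41 bp upstream with a signal value of 60.9 but no IDR summit at the promoter. The upstream start of ush-RD and ush-RE at 476220 had neither an IDR nor a relaxed summit within 500 bp, and the nearest relaxed one lay 548 bp upstream with 38.2. The neighbouring gene CG4297 had an IDR peak 251 bp upstream of its start, at 472451, with a signal value of 428.8, and with 172.4 and rank 238 in replicate 2 and 261.0 and rank 274 in replicate 3. The locus also held 40 relaxed regions without an IDR peak, with signal values from 28.5 to 77.9 and a median of 38.7. Of these, 25 lay in introns, 6 at promoters and 6 in coding exons.

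**Figure D1:**
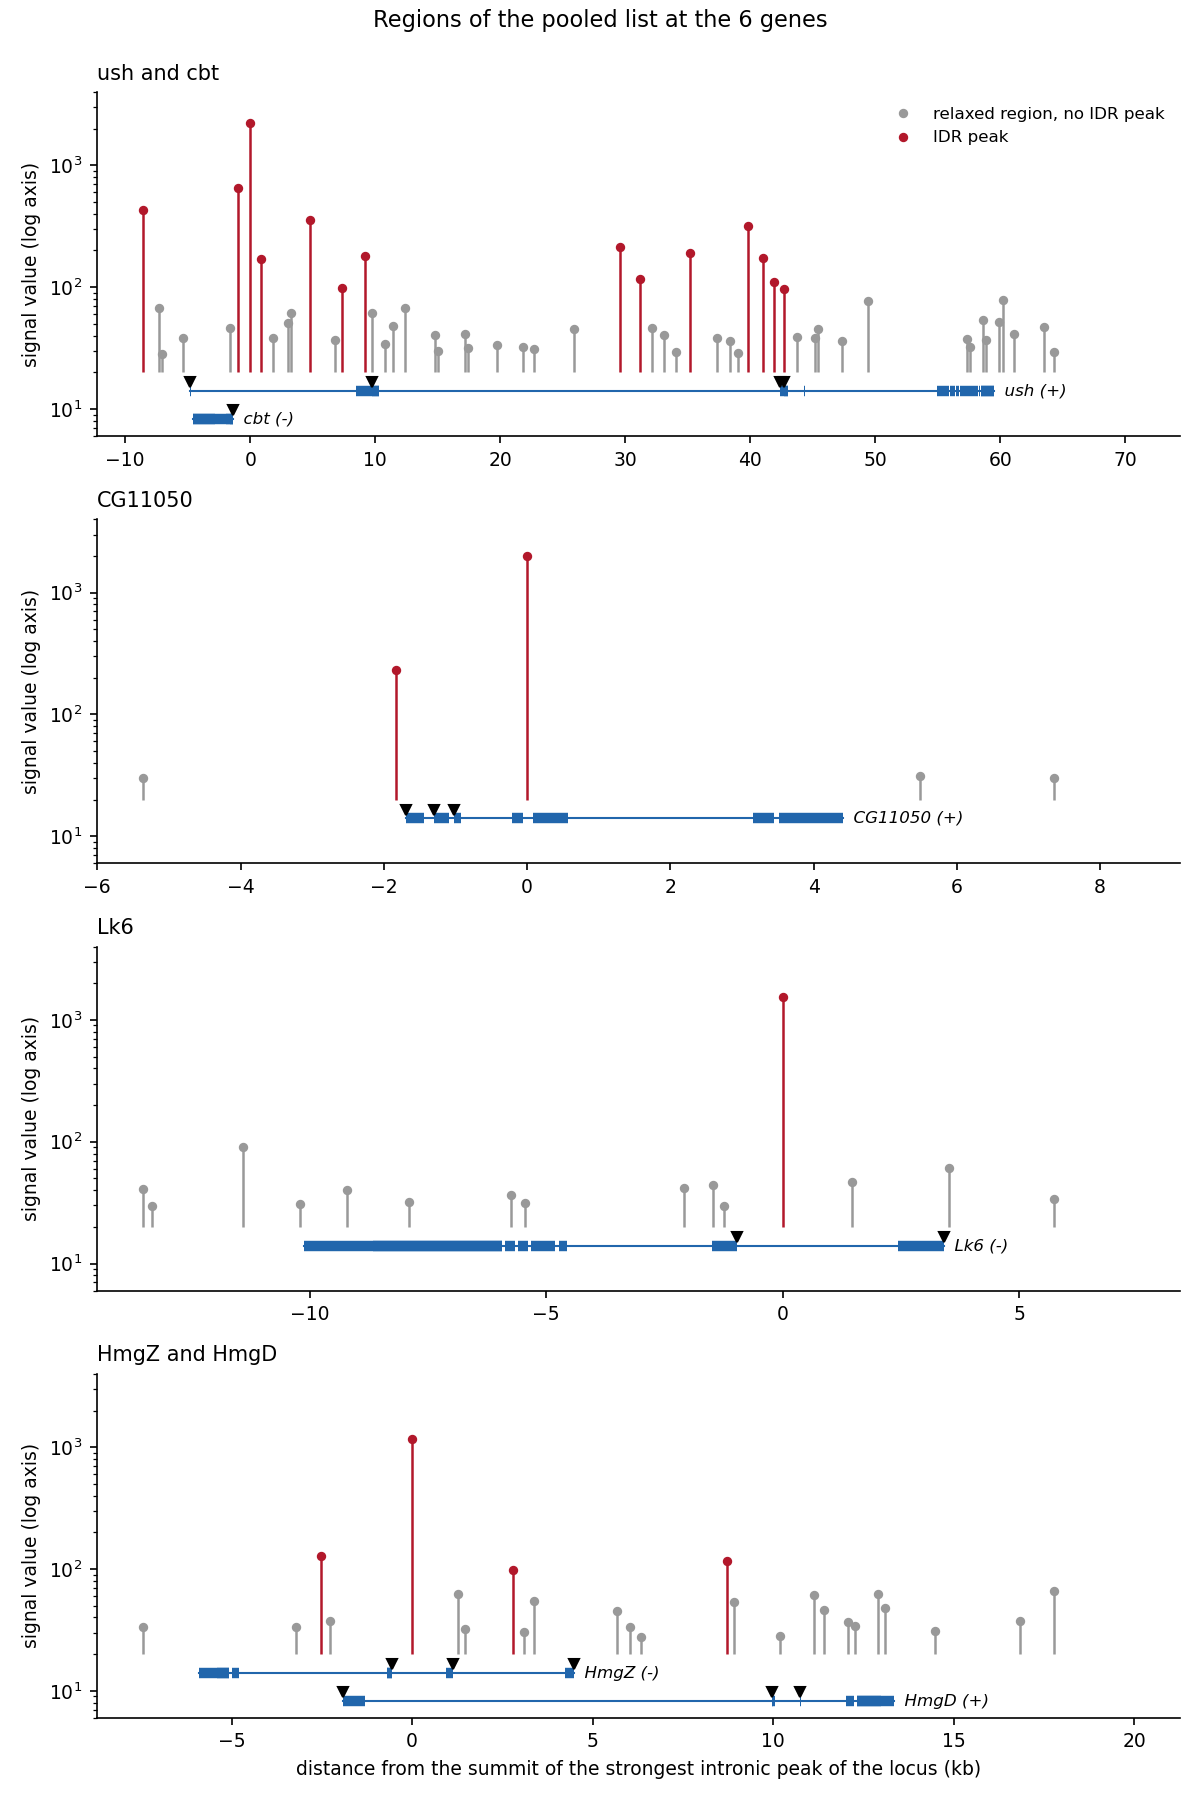
Signal value (log axis) of every pooled relaxed region at the 4 loci against distance in kb from the strongest intronic summit. Red stems are IDR peaks, grey stems other relaxed regions, blue bars exons over the gene line, black triangles start sites, and (+) or (-) the strand. In each locus the peak at 0 stands above all others, from 2218.4 at ush and cbt to 1157 at HmgZ and HmgD.

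CG11050 had a strong intronic peak and a weaker peak at its promoter. The gene (FBgn0031836) spans 6611011 to 6617117 on the plus strand of 2L and no role is given for it here. The intronic peak ran from 6612464 to 6612921 with its summit at 6612700 and a signal value of 1980.6, rank 4 of the IDR list. It had a signal value of 762.4 in replicate 2 and 1224.6 in replicate 3, and ranked 4 in each. The intron, the second of all 3 transcripts, is only 140 bp long, from 6612641 to 6612780. Of the 458 bp of the region, 216 were coding exon, 81 were 5' UTR and 35.2% were intron in some transcript. The summit sits in the intron, but the region covers the exons on both sides. The summit lay 1013 bp downstream of the nearest start, that of CG11050-RC at 6611687.

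The CG11050 promoter peak had its summit at 6610869, 142 bp upstream of the start of CG11050-RA, with a signal value of 232.2. It ranked 924 in the IDR list. In replicate 2 it had 73.8 and rank 1429, and in replicate 3 154.9 and rank 799, well below the intronic peak in both. The starts of CG11050-RB and CG11050-RC lay further from it, at 537 and 818 bp, and had no IDR or relaxed summit within 500 bp. Only 3 other relaxed regions lay within 5 kb, with signal values from 30.0 to 31.2. There was thus a pair of IDR peaks at CG11050 and almost nothing else.

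Lk6 had a single IDR peak, and none at its promoters. The gene (FBgn0017581) runs from 11750931 to 11764457 on the minus strand of 3R. The peak, from 11760853 to 11761240 with its summit at 11761049, had a signal value of 1556.6 and rank 8. Its signal value was 621.4 in replicate 2, rank 7, and 940.8 in replicate 3, rank 10. It lay in the first intron of Lk6-RA, 6991 bp long, 970 bp upstream of the internal start of Lk6-RB and 3408 bp downstream of the start of Lk6-RA. The summits of the replicates differed from the pooled one by 0 and 9 bp.

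At the Lk6-RA start a relaxed region had its summit 111 bp upstream, with a signal value of 60.7. That region had a signal value of 41.0 and rank 3900 in replicate 2 and 25.1 and rank 16186 in replicate 3. By replicate 2 alone, this promoter was therefore within the 4033 strongest regions, and by replicate 3 it was not. At the Lk6-RB start the nearest relaxed summit was 275 bp downstream with a signal value of 29.8. In all, 14 relaxed regions without an IDR peak lay at the locus, from 29.7 to 91.3, and the highest lay at the promoter of the neighbour CG6923.

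HmgZ and HmgD overlap at their 5' ends on opposite strands, and their strongest peak lay in introns of both. HmgZ (FBgn0010228) runs from 21697488 to 21707861 on the minus strand of 2R, and HmgD (FBgn0004362) from 21701458 to 21716727 on the plus strand. The peak, from 21703151 to 21703667 with its summit at 21703381, had a signal value of 1157 and rank 19. In replicate 2 its signal value was 419.2, rank 28, and in replicate 3 it was 740.7, rank 16. It lay in the first intron of HmgZ-RB, of HmgZ-RD and of HmgD-RD. The summit was 551 bp upstream of the start of HmgZ-RA and HmgZ-RC, just outside the 500 bp that counted as promoter. With a width of 517 bp the region was wider than the 424 bp that 3239 of the 4033 IDR peaks had.

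Weaker IDR summits lay on either side. One at 21700849 had a signal value of 128.7 and lay 609 bp upstream of the start of HmgD-RD, with 54.6 and rank 2391 in replicate 2 and 75.9 and rank 2697 in replicate 3. One at 21706173 had a signal value of 98.5, but 66.4 and rank 1664 in replicate 2 and 28.9 and rank 12299 in replicate 3, so the replicates differed widely there. One at 21712110 had a signal value of 115.8, lay 1246 bp upstream of the start of HmgD-RA and HmgD-RC, and 497 bp upstream of that of CG30403 inside HmgD. It had 54.0 and rank 2440 in replicate 2 and 54.1 and rank 4453 in replicate 3. No start site of HmgZ or HmgD had an IDR summit within 500 bp. Relaxed summits lay 146 bp upstream of HmgZ-RB with a signal value of 62.3, 355 bp upstream of HmgD-RD with 37.7, 211 bp downstream of HmgD-RA with 28.2 and 388 bp downstream of HmgD-RB with 61.3. The locus held 21 relaxed regions without an IDR peak, from 27.6 to 65.7.

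Own promoters were bound at 3 of the 6 genes, ush, cbt and CG11050, taking as bound a gene with an IDR summit at most 500 bp from any of its start sites. By the same rule, 18.8% of all protein-coding genes were bound. The 6 genes were picked for strong peaks close by, so this count says nothing about them beyond the description. With a window of 1000 bp all 6 were bound, against 21.6% of all genes, since the peaks nearest to a start of Lk6, HmgZ and HmgD lay 970, 551 and 609 bp from it. With a window of 250 bp only ush and CG11050 were. Relaxed summits lay within 500 bp of a start site in all 6 genes, against 53.2% of all genes. By start site, 4 of 16 had an IDR summit and 11 of 16 a relaxed one. Shares over all start sites, and over all genes at 250 bp, are not given here, so those counts describe the 6 genes alone. An IDR summit lay inside 5 of the 6 genes, all but cbt, against 11.0% of all genes, and that follows from the choice.

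**Figure D2:**
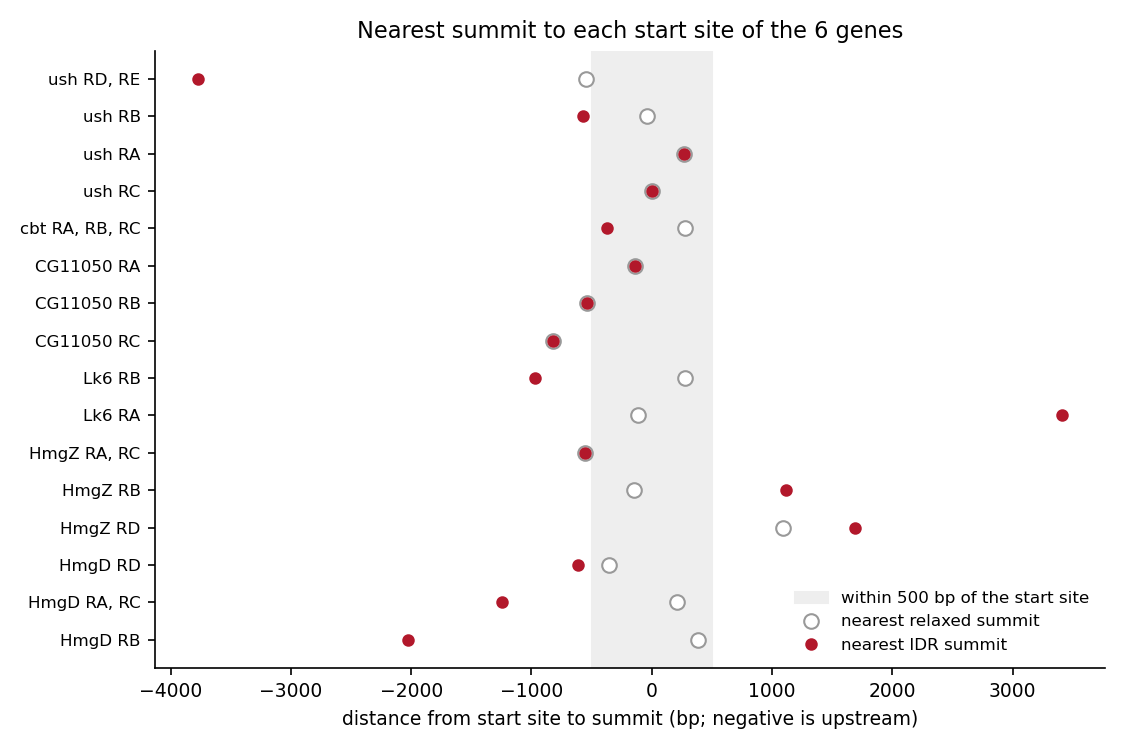
Distance in bp from each of the 16 start sites of the 6 genes to the nearest IDR summit (red) and the nearest relaxed summit (open grey), negative values being upstream and the grey band 500 bp to either side. Letters after a gene name are its transcripts. IDR summits fall in the band at 4 start sites, of ush, cbt and CG11050.

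Over all 4 loci there were 99 relaxed regions, 21 of them IDR peaks. The IDR summits came to 1.24 per 10 kb at CG11050, 0.425 at Lk6 and 1.37 at HmgZ and HmgD, with the 1.88 at ush and cbt the highest. Each locus was chosen for a strong IDR peak, so the choice itself raises these densities. Of the 21 summits, 15 lay in introns, 5 at promoters and 1 in a 5' UTR. Of all 4033 IDR peaks, 1325 were intronic. The genes were chosen for intronic peaks, so the count in introns follows in part from the choice. No coding exon or 3' UTR held an IDR summit, while these held 13 and 6 of the other 78 regions. Shares of these 2 classes over all IDR peaks are not given here, so this describes the loci alone. The q value was at the limit of the list, a −log10 of 3.84, in 18 of the 21, as in 3462 of the 4033 IDR peaks, so it does not order them. The 78 others had signal values of 27.6 to 91.3, with a median of 38.2, below the lowest IDR peak at 95.9. At these loci the IDR peaks were the regions within the 4033 highest of the relaxed list, so this gap follows from the cut. A replicate 2 region overlapped 66 of the 78 others, a replicate 3 region 65, and regions of both 56, while 3 had a q value of 0.01 or less.

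Both replicates held a region at every one of the 21 IDR peaks. The IDR list was itself made from the relaxed lists of each replicate and of both pooled, which bears on this. Of the 21 peaks, 15 had 50% or more of their bases under one of the 4033 strongest regions in each replicate. Of the other 6, 3 lacked such a region in replicate 2 and 3 in replicate 3. Spearman's rho of the signal values over the 21 was 0.891, a description over regions that share the genes and the 1 further file used with the alignments, and over 77 relaxed regions found in both it was 0.572. Replicate summits at the 21 peaks lay a median of 9 bp apart, from 1 to 81 bp. None of these values is given here over all 4033 IDR peaks, so they describe the loci alone. The 4 strongest peaks had ranks of 1 to 19 in the IDR list, 2 to 28 in replicate 2 and 1 to 16 in replicate 3.

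**Figure D3:**
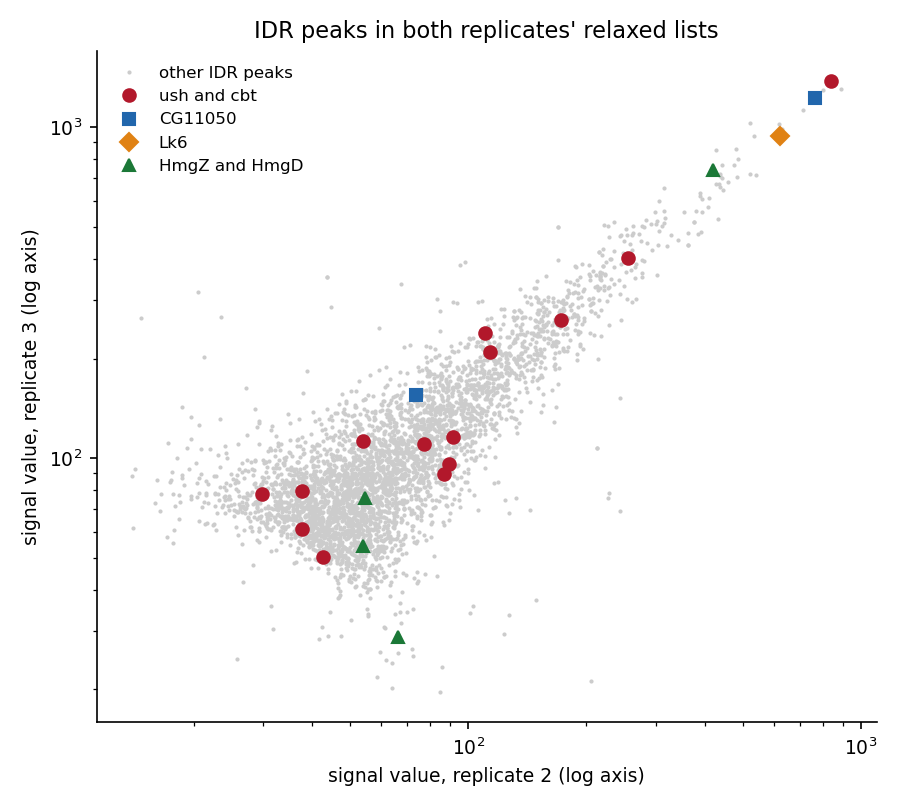
Signal value in replicate 3 against that in replicate 2 (both log axes) for IDR peaks with a region in both relaxed lists. Coloured marks are the 21 IDR peaks of the 4 loci and grey points all others. The strongest peak of each locus sits at the upper right, and a weak peak at HmgZ and HmgD, with 66.4 in replicate 2 and 28.9 in replicate 3, lies below most points.

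The next intronic peaks by signal value, just outside the choice, began just below the weakest one inside it and fell off from there. A peak of CG32772 on X had a signal value of 1152.7 and rank 20, against 1157 and rank 19 at HmgZ and HmgD. Then came Tlk with 983.8, Trl, which encodes the GAGA factor, with 972.1, CG9663 with 944.2, cno, which encodes the junction protein Canoe, with 887.2, and CG31635 with 840.0. Their summits lay from 931 to 2319 bp from a start site, all of the gene that held them. Among the 10 strongest intronic peaks, 7 lay within 1500 bp of a start, and the own promoter of the holding gene was bound at ush, CG11050, Trl and CG31635.

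The strongest intronic peaks lay close to start sites, although by definition over 500 bp from any. The 4 summits lay 1369, 1013, 970 and 551 bp from the nearest start site. Of all 1325 intronic IDR peaks, 33.2% lay over 500 and up to 1500 bp from a start, and 23.8% beyond 6000 bp. Among the former, 13.9% ranked in the top 500 of the IDR list, and among the latter 5.08%. The median signal value differed little, at 150 and 140, and the highest were 2218.4 and 735. This is a description over peaks, with signal values that also chose the 4.

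**Figure D4:**
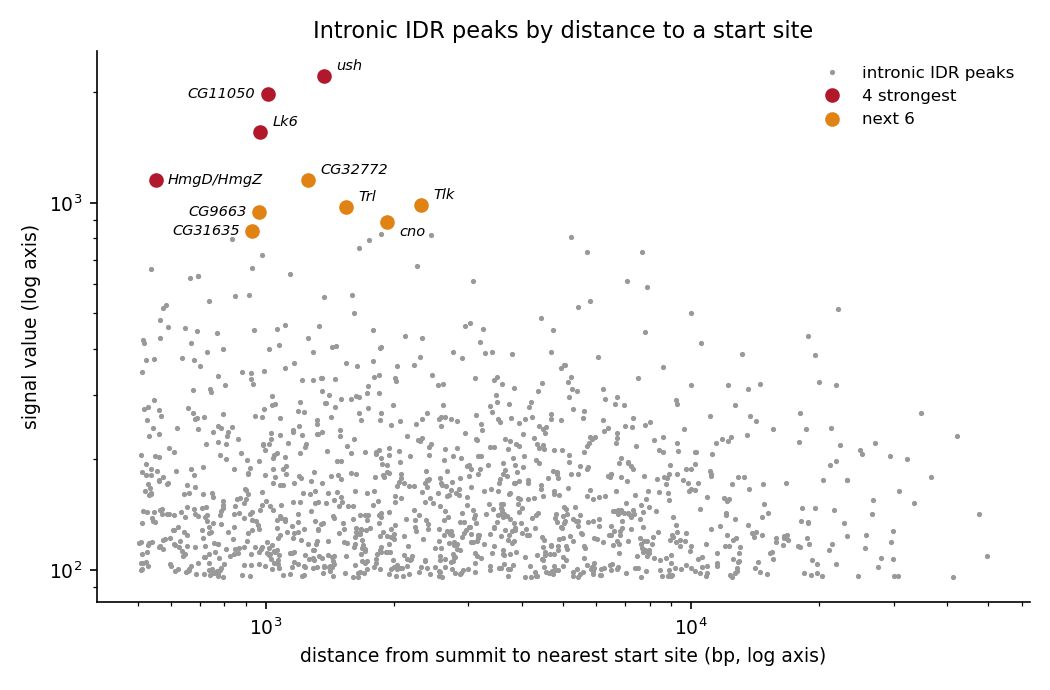
Signal value against distance in bp from summit to nearest start site (both log axes) for the 1325 intronic IDR peaks, with the 4 strongest in red and the next 6 in orange, named by the genes that hold them. All 10 lie within 2319 bp of a start site.

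Genes related by role to ush, cbt, Lk6, or HmgZ and HmgD were listed, with no list for CG11050, and 27 of the 28, all but Tor, were matched. The lists follow family or pathway, so a listed gene need not be a known partner. Bound promoters, by the 500 bp rule, were found at 7 of these 27, against 18.8% of all genes. An IDR summit lay inside 9 of the 27, against 11.0% of all genes, a count that gene length bears on. Among GATA factors and their cofactors, listed for ush, 1 of 6 was bound, the GATA factor gene grn, with 101.9 as signal value, 107 bp upstream of the start. An IDR summit lay inside 2 of these 6 genes, GATAd and CtBP. The GATA factor genes pnr and srp, whose products are known to bind Ush, had none at a promoter or inside the gene. Among clock genes, listed because cbt is a known target of the clock, 2 of 8 were bound. These were vri, a repressor of the clock, with 188.4 at 264 bp upstream of the start, and its antagonist Pdp1 with 101.4. The Pdp1 summit lay 496 bp downstream of the start, close to the limit of 500 bp, and the peak ranked 2248 in replicate 2 and 7658 in replicate 3. IDR summits lay inside 3 of the 8 clock genes, with 4 each in vri and Pdp1.

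Around Lk6, 3 of 7 matched genes were bound. The peak of eIF4E1, the substrate of the kinase, had a signal value of 121.9 and lay 57 bp upstream of the start. That of Thor, which encodes the protein that sequesters eIF4E, had 185.7 and lay 16 bp upstream. That of Ras85D, a GTPase upstream of the MAP kinases, had 220.5 and lay 79 bp upstream, and it also counted as promoter of Rlb1. An IDR summit lay inside 2 of the 7 genes, with 10 in Raf, whose promoter was not bound, and 1 in Thor. Among HMG-box and linker proteins, 1 of 6 was bound, the HMG-box gene bbx. Its stronger promoter peak had a signal value of 559.9, rank 134, and lay 156 bp upstream. It ranked 198 in replicate 2 and 103 in replicate 3. The lists hold 6 to 8 genes each, so their shares are coarse.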

How the data were processed

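Peak lists of 2 replicates were used. Each relaxed list was made by the authors from alignments and 1 further file, and the optimal IDR list from the relaxed lists of each replicate (30000 and 29279 regions) and of both pooled (30000), per the file records. For the aligner and the caller, names were not given in the sources used here, nor versions. The signal value, of unstated scaling, and the −log10 q value are as deposited. The files hold no counts, so depth is unknown. Ensembl release 115 (dm6 coordinates) gave the genes, without transposable elements and pseudogenes.

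A summit within 500 bp of any start site was called promoter. Others were placed in intergenic sequence, an intron or an exon class, exons taking precedence. A locus was a gene and 5 kb to either side by summit, and overlapping loci were joined into 4. Each region was matched to the replicate region of greatest overlap. The members and lists were chosen with earlier results of these data known, so no test was run. Genes named are the members, neighbours within 5 kb at or nearest to an IDR peak, the holders of the next 6 intronic peaks, and bound listed genes. A few others were added after their values were seen: pnr, srp, GATAd, CtBP, Raf, Rlb1 and CG6923. The distance and intron calculations were tested on simulated positions. Python 3.11.15 was used, with SciPy 1.17.1.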

Additional observations from a re-analysis of the deposited data

How the results depend on the processing

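No paired analysis was possible because there is a single group. The number of genes with a bound own promoter was 6 with a window of 1000 bp, against 3, since that window reaches the strongest peaks for Lk6 and HmgZ and a weaker peak, of signal value 128.7, for HmgD. Relaxed regions at the loci numbered 24 when a q value of 0.01 or less was required, against 99. When 90% of the length had to be covered, 7 of the 21 IDR peaks were covered in both replicates, against 15. Of the 16 motifs, 2 were found at the strongest summits within 50 bp, 0 within 25 bp and 6 within 100 bp. With 1 replicate left out, bound own promoters ranged from 2 (without replicate 2: cbt and CG11050) to 4 (without replicate 3: Lk6 added), summits at the loci from 19 to 21, those away from start sites from 15 to 15, and relaxed regions from 82 to 104. The ranks then ranged from 1 to 2 for ush and cbt, 4 to 4 for CG11050, 7 to 10 for Lk6 and 16 to 28 for HmgZ and HmgD. On dm3, peaks were paired with those of dm6 by order of signal value on each arm, not by position, and had the same ranks 1, 4, 8 and 19. Such pairing all but fixes similar ranks. Width and summit offset were the same for Lk6 alone, so this does not check that the paired peaks are the same. RefSeq start sites, an annotation chosen after seeing the data, gave the same distances. Depth is unknown and no input or untagged sample was analysed here, so background cannot be set beside single values.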

Other observations

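The letters GATTAGA, on either strand, stood in 3 of the 4 windows of 151 bp at the strongest intronic summits, those of ush, CG11050, and HmgZ and HmgD, and not in that of Lk6. They were noticed by reading these windows, so the count is a description and no test was run. None of the next 6 intronic summits had them. They stood in 1.39% of all IDR summit windows, 1.58% of the intronic ones and 1.2% of the relaxed regions outside IDR peaks, and the 3 windows are counted in the first 2 of these shares.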
